A study of Homo sapiens with 3 samples.

Results

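The loci described here are those of 7 genes that act in cell division and growth arrest: MYC, CCND1, CCNC, CDKN1A, CDKN1B, GADD45A and IGFBP3. They were taken as a fixed list of genes, which was chosen with earlier results of these data known. Every vitamin D receptor (VDR) peak that overlapped a window of 100 kb to each side of the transcription start site (TSS) was counted. The windows held 6 of the 1169 peaks found in unstimulated cells and 5 of the 1820 peaks found after calcitriol, which form 8 of 2121 merged regions. The peaks come from chromatin immunoprecipitation and sequencing (ChIP-seq) in THP-1, a human monocytic leukaemia cell line. Both groups spent a night in medium without phenol red and with charcoal-stripped serum, and the treated group then received 10 nM calcitriol (1α,25-dihydroxyvitamin D3) for 40 min while the unstimulated group received none. The series holds 3 samples, of which the 2 VDR libraries were used and the IgG control was not analysed here. Each library pooled 5 immunoprecipitations and each condition has 1 library, so no value below has a replicate error and no difference between the conditions was tested.

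Calcitriol acts on genes through VDR, which occupies DNA mostly as a pair with a retinoid X receptor. In many cell types calcitriol slows division, and in myeloid leukaemia cells it also drives differentiation towards monocytes. Cyclins and the MYC transcription factor promote passage through the cell cycle, whereas inhibitors of cyclin-dependent kinases such as p21 and p27 hold it back. Several of the 7 genes are long-known responders to calcitriol in other cells.

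VDR peaks lay near 4 of the 7 genes, MYC, CCND1, CDKN1A and GADD45A, and these 4 had a peak in both lists. No peak of either list fell within 100 kb of CCNC, CDKN1B or IGFBP3. For comparison, the same window was placed on every position of the 23 chromosomes in the lists. An unstimulated peak was within 100 kb of 4.66% of positions, a calcitriol peak within 100 kb of 7.91%, and a peak of either list within 100 kb of 9.14%, against 4 of 7 genes in each case. These are shares of all positions and not of gene starts, which were not used here for hg19, the build of the lists. The share of positions is therefore no measure of what other genes would show. The list was also chosen with earlier results of these data known, so 4 of 7 is not an independent count. On the 6 chromosomes that carry the 7 genes, the share of positions near a peak of either list ran from 7.58% on chromosome 7 (IGFBP3) to 13.2% on chromosome 1 (GADD45A).

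**Figure D1:**
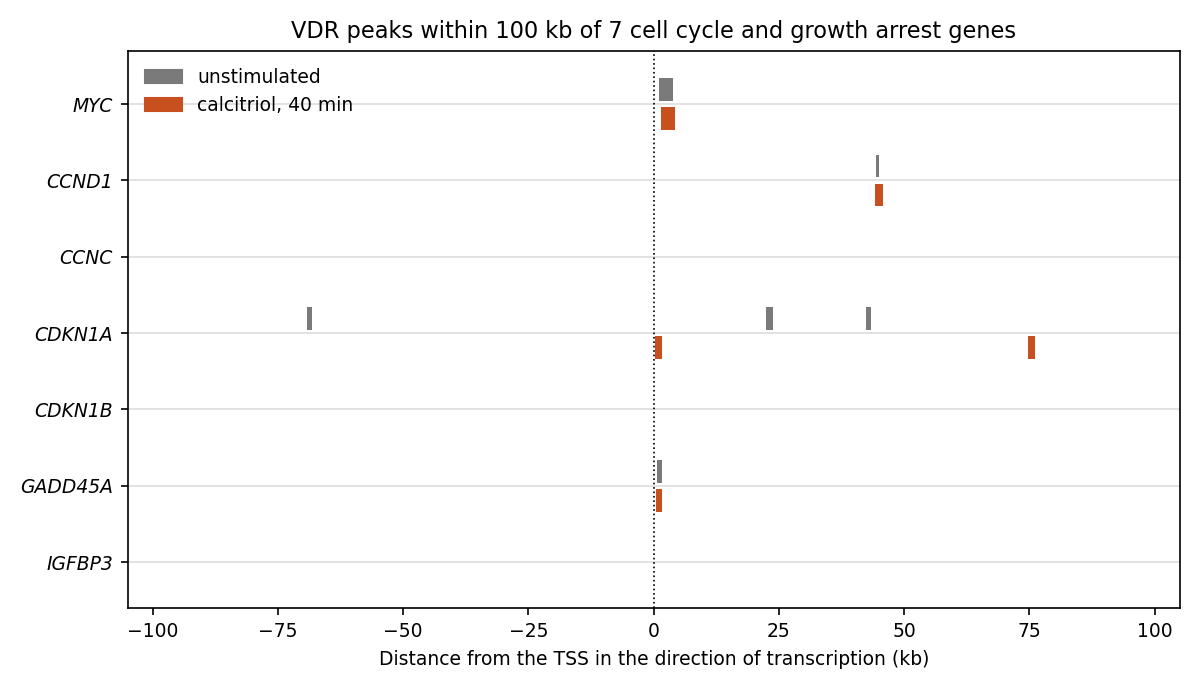
VDR peaks within 100 kb of 7 genes, drawn to scale as distance from the TSS in the direction of transcription (kb); grey boxes above each line are unstimulated peaks and orange boxes below it calcitriol peaks. MYC, CCND1 and GADD45A have overlapping boxes, the 5 boxes of CDKN1A do not overlap, and the lines of CCNC, CDKN1B and IGFBP3 are empty.

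The peaks near MYC, CCND1 and GADD45A were common to both states, and those near CDKN1A were not. Of the 8 regions in the windows, 3 (37.5%) held peaks of both lists, 3 (37.5%) held an unstimulated peak alone and 2 (25%) a calcitriol peak alone. Over all 2121 regions these shares were 27.4%, 20.6% and 52%. All 5 regions of a single state lay near CDKN1A, so they describe 1 locus. A region of both lists was within 100 kb of 3 of 7 genes and of 3.02% of positions. An unstimulated-only region was near 1 of 7 genes and 2.31% of positions, and a calcitriol-only region near 1 of 7 genes and 5.89% of positions. Class was given by an overlap of at least 1 bp. The lists carry no peak height, so a peak that is in 1 list may have lain just under an unknown threshold in the other.

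Peaks lay close to the TSS of 3 genes, MYC, CDKN1A and GADD45A. A peak of either list was within 5 kb of these 3 of 7 genes and of 0.711% of positions, a distance chosen after the values were seen. This too is a share of all positions and not of gene starts. Each of the 5 peaks concerned lay downstream of the TSS as given, in the direction of transcription. The TSS positions are rounded to 1 kb, so a TSS can lie up to 0.5 kb to either side of the value used. This margin reaches the near edge of the calcitriol peaks of CDKN1A and GADD45A, which may therefore cover the start itself, and it does not reach the peaks of MYC.

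**Figure D2:**
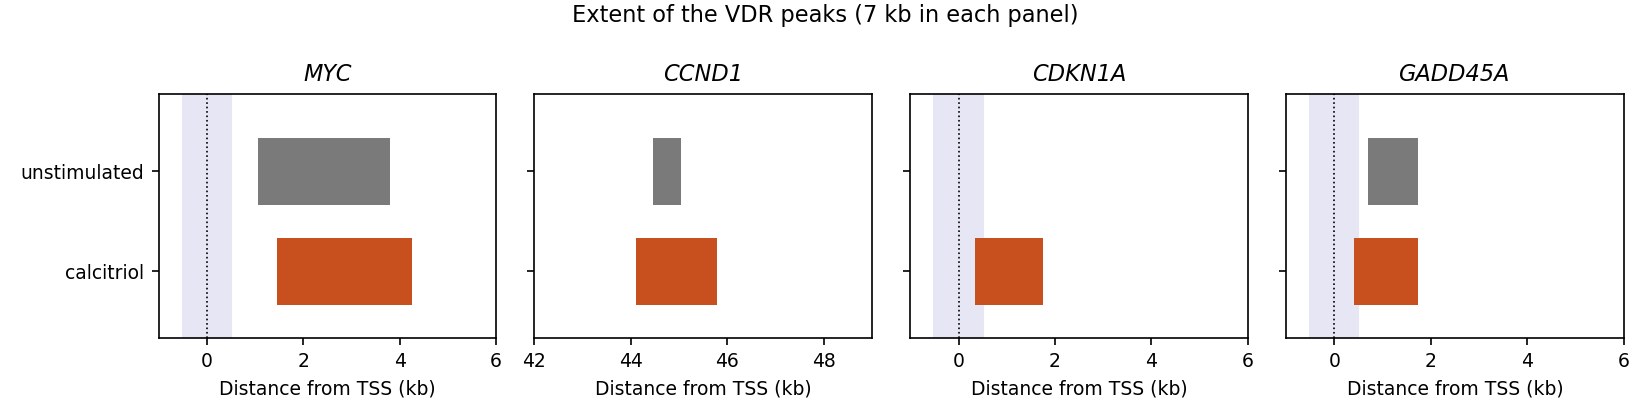
Extent of the VDR peaks near MYC, CCND1, CDKN1A and GADD45A as distance from the TSS (kb), 7 kb in each panel; grey boxes are unstimulated and orange boxes calcitriol peaks, and the shaded band is the rounding of the TSS by 0.5 kb to each side. The CDKN1A panel has an orange box alone, the CCND1 boxes lie at about 44 to 46 kb, and both boxes of MYC start beyond 1 kb.

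Among the genes that promote growth, MYC had the widest peaks of the 7 loci. MYC encodes a transcription factor that drives growth and division, and its TSS was set at 128.748 Mb of chromosome 8. In unstimulated cells its peak ran from 128749061 to 128751791, a width of 2730 bp. After calcitriol it ran from 128749451 to 128752251, a width of 2800 bp. The near edges were 1061 and 1451 bp downstream of the TSS, and the far edges 3791 and 4251 bp. Both peaks were wide for their lists: 98.2% of unstimulated and 98.1% of calcitriol peaks were narrower. The overlap of 2340 bp made up 85.7% of the unstimulated and 83.6% of the calcitriol peak. Width was nearly the same before and after the ligand, with a ratio of 1.03, but the calcitriol peak sat 425 bp further downstream by its centre. Among all 447 regions made of 1 peak from each list, the median ratio of calcitriol to unstimulated width was 1.12 (quartiles 0.88 and 1.48) and the median distance between centres 235 bp (quartiles 95.0 and 415 bp). The centre shift at MYC was larger than that of 76.3% of these regions. In all, 0.120% of positions lay as near to an unstimulated peak, and 0.238% as near to a calcitriol peak, as the MYC TSS did.

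CCND1 encodes cyclin D1, which activates the kinases that start the cell cycle, and its TSS was set at 69.456 Mb of chromosome 11. Its single region of both lists lay far downstream of the TSS, at about 44 kb. It counted as shared by an overlap of 1 bp but not by a reciprocal overlap of 50%, because the unstimulated peak covered 35.1% of the calcitriol peak. The unstimulated peak ran from 69500451 to 69501041 and was 590 bp wide, narrower than all but 2.7% of its list. The calcitriol peak ran from 69500111 to 69501790 and was 1679 bp wide, with 67.7% of its list narrower. It contained the whole unstimulated peak and extended it by 340 bp on the side of the TSS and by 749 bp on the other. The width ratio of 2.85 was reached or passed by 7 of the 447 regions of 1 peak each, CCND1 included. Width came from position-only lists of 1 library each, so whether it marks more signal was not tested. In RefSeq (GRCh38.p14) the protein-coding genes next to CCND1 are MYEOV upstream and LOC124902704 downstream. The peaks were assigned to no gene, since no hg19 annotation was used here.

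CCNC encodes cyclin C, a subunit of the kinase module of the Mediator complex, which links transcription factors to RNA polymerase. Its TSS was set at 100.017 Mb of chromosome 6, and it stood farthest from any peak of the 7 genes in both lists. The nearest unstimulated peak, from 106895621 to 106896691, was 6.88 Mb away, and the nearest calcitriol peak, from 106610781 to 106613750, was 6.59 Mb away. Both lay upstream of CCNC, which is transcribed from the minus strand. As many as 93.3% of positions lay as near or nearer to a peak of either list. CCNC shares its chromosome with CDKN1A, the gene with most peaks, and that chromosome carried 65 unstimulated and 111 calcitriol peaks.

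The CDK inhibitor CDKN1A had the most peaks of the 7 genes, 3 unstimulated and 2 calcitriol peaks, and none of them was shared. Regions of a single list are the usual case, at 72.6% of all 2121. CDKN1A encodes p21, an inhibitor of cyclin-dependent kinases that halts the cell cycle after p53 activation and during differentiation. Its TSS was set at 36.646 Mb of chromosome 6. After calcitriol a peak of 1410 bp lay at the start of the gene, from 36646341 to 36647751, which is 341 to 1751 bp downstream of the TSS as given. In unstimulated cells there was no peak there, and the nearest one began 22331 bp downstream of the TSS. The gap from the calcitriol peak to the nearest unstimulated peak was 20580 bp. A distance as short as 341 bp to a calcitriol peak was found for 0.125% of positions, and one as short as 22331 bp to an unstimulated peak for 1.24%.

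The other calcitriol peak of the CDKN1A window ran from 36720691 to 36722181, was 1490 bp wide and began 74.7 kb downstream. The 3 unstimulated peaks ran from 36576831 to 36577891 (1060 bp), from 36668331 to 36669861 (1530 bp) and from 36688411 to 36689450 (1039 bp). The first of these lay 68.1 kb upstream of the TSS, and the others 22.3 and 42.4 kb downstream. The peak at 42.4 kb is among 170 rows of the unstimulated list that break its position order, and without it the window held 4 regions, 2 of them unstimulated-only. With all 5 regions, the out-of-order row included, the CDKN1A window was a crowded one. Of all positions, 0.294% had 5 or more regions within 100 kb. That cutoff is the count of this window itself, so the share is no independent measure. Widths were ordinary: of the respective list, 25.7 to 64.1% of peaks were narrower than the unstimulated peaks and 48.3 to 54.7% narrower than the calcitriol peaks. The protein-coding neighbours of CDKN1A in RefSeq (GRCh38.p14) are SRSF3 upstream and RAB44 downstream.

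CDKN1B encodes p27, the inhibitor most closely related to p21 among the 7 proteins, and it had no peak in its window. Its TSS was set at 12.870 Mb of chromosome 12. The nearest calcitriol peak, from 12162671 to 12164180, was 706 kb upstream. The nearest unstimulated peak, from 16726301 to 16727030, was 3.86 Mb downstream. As near to a peak of the same list lay 35.1% of positions for calcitriol and 61.9% for the unstimulated list. By this measure the CDKN1B TSS was nearer to a calcitriol peak than most positions, and farther from an unstimulated peak than most.

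The promoter sequences of the inhibitors are shown because these related genes differed in the calcitriol list: CDKN1A had a peak at its start and CDKN1B none within 100 kb. IGFBP3, with no peak near it, is added because its promoter holds a VDR half-site hexamer. Each line gives the 250 bases before the RefSeq start, 5′ to 3′ on the gene's own strand, in GRCh38.p14: CDKN1A at chr6:36678464-36678713 on the plus strand, CDKN1B at chr12:12717118-12717367 on the plus strand and IGFBP3 at chr7:45921273-45921522 on the minus strand. Capitals mark a hexamer match on either strand.
CDKN1A: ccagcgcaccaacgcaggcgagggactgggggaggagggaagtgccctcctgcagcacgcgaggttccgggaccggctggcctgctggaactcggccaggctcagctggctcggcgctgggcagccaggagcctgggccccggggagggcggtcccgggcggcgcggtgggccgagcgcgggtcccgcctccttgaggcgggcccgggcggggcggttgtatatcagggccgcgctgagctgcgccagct
CDKN1B: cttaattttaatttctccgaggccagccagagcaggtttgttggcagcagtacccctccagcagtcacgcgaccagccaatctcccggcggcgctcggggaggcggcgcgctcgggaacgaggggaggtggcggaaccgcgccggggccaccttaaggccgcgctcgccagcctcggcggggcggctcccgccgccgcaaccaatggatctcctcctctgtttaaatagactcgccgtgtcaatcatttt
IGFBP3: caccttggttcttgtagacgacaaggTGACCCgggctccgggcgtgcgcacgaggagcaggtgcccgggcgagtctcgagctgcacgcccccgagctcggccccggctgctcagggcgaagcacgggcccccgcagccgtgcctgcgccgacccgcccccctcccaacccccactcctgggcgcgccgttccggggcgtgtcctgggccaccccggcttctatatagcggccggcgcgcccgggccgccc
The hexamers searched were AGGTCA with GGTTCA and GGGTCA and GGGTGA and AGTTCA, on both strands, over windows of 250 bases before to 50 bases after the start. Of the 7 genes, 4 were searched, in 5 windows because CCNC has a pair of overlapping ones. CCND1, GADD45A and MYC, which all had a peak within 100 kb, were not searched. IGFBP3 and CCNC held GGGTCA, at 1 place each, and CDKN1A and CDKN1B held none of the hexamers. At least 1 of the 5 hexamers was in 48.4% of all 35116 promoter windows, so a match is common. A direct repeat of such hexamers with 3 bases between them, the arrangement VDR is best known to bind, was in 0.105% of all windows and in none of these. Half-sites in 2 of the 4 searched genes are near the 48.4% of all windows, but the former counts genes and the latter windows. Both CCNC windows held the same GGGTCA. CDKN1A was the only searched gene with a peak within 100 kb, and it had no half-site in its promoter window. Of the searched genes without a peak, CCNC and IGFBP3 had a half-site and CDKN1B had none. With 1 searched gene that has a peak, no relation between half-sites and peaks can be read from these windows. The peaks are on hg19 and the sequences on GRCh38.p14, so the peak could not be laid over these letters, and its own sequence was not read.

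GADD45A, a stress-induced gene whose product takes part in growth arrest and DNA repair, had a peak just downstream of its TSS in both states. The TSS was set at 68.151 Mb of chromosome 1. The unstimulated peak ran from 68151701 to 68152741 (1040 bp) and the calcitriol peak from 68151401 to 68152731 (1330 bp). Their far edges were 10 bp apart, while the near edge was 701 bp from the TSS before and 401 bp after the ligand. The calcitriol peak thus extended 300 bp further towards the TSS, and 99.0% of the unstimulated peak lay inside it. The width ratio was 1.28, with 62.6% of the 447 regions of 1 peak each below it. Neither peak was wide for its list, with 25.7% of unstimulated and 41.9% of calcitriol peaks narrower. The centre of the GADD45A calcitriol peak was 1066 bp from the TSS as given, and that of the calcitriol peak at CDKN1A 1046 bp. Each TSS can lie up to 0.5 kb to either side, so how alike these distances are is not firm. Just downstream of the TSS, GADD45A had an unstimulated peak and CDKN1A had not.

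IGFBP3 encodes a secreted protein that binds insulin-like growth factors and limits their action on growth. Its TSS was set at 45.961 Mb of chromosome 7, and no peak of either list lay within 100 kb or within 1000 kb of it. The nearest peaks of both lists belonged to a shared region 1.35 to 1.36 Mb downstream, from 44604011 to 44605981 before and from 44604491 to 44606411 after calcitriol. IGFBP1, of the same protein family, is its coding neighbour downstream in RefSeq (GRCh38.p14). IGFBP3 and CCNC were the 2 genes with no peak within 1000 kb. A peak of either list was that near to 46.4% of positions and to 5 of the 7 genes.

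**Figure D3:**
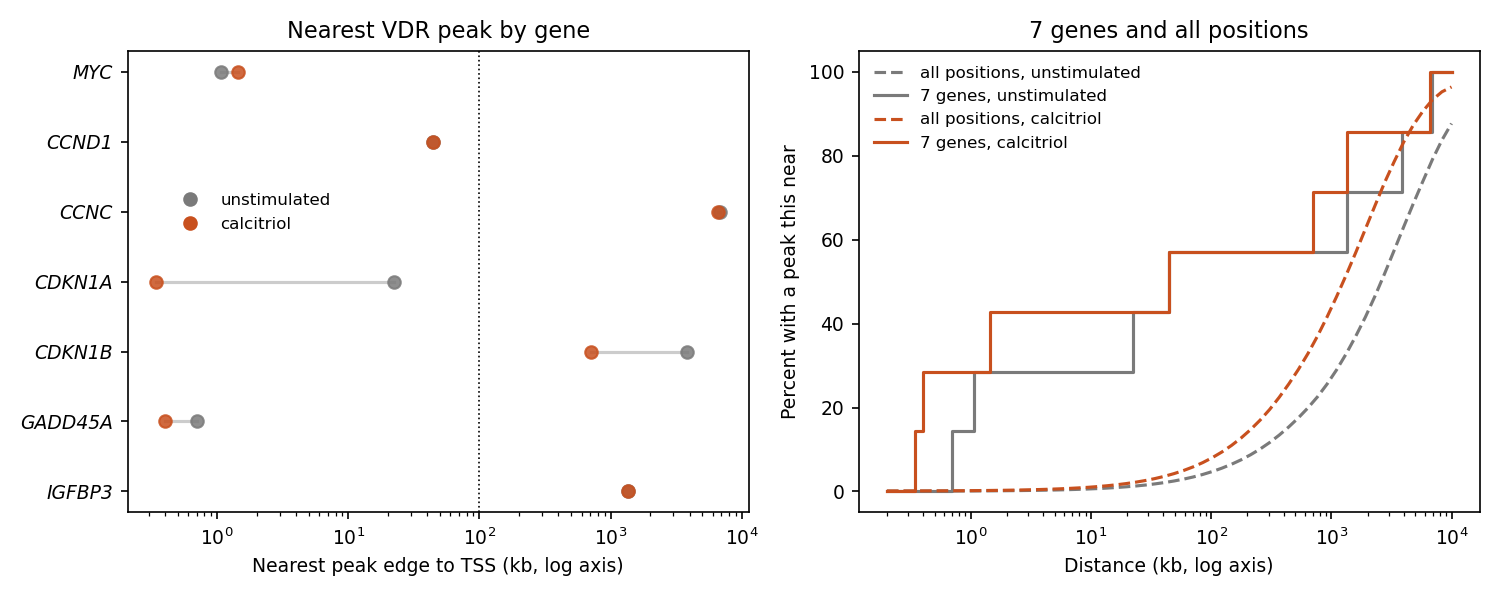
Left, distance from each TSS to the nearest peak edge in the unstimulated (grey) and calcitriol (orange) list, in kb on a log axis, with the dotted line at 100 kb. Right, percent of the 7 genes (steps) and of all positions (dashed lines) with a peak within the distance on the log axis; 4 of 7 genes have a peak by 100 kb, against 4.66% and 7.91% of positions.

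By distance the order of the genes was GADD45A, MYC, CDKN1A, CCND1, IGFBP3, CDKN1B and CCNC in the unstimulated list. In the calcitriol list it was CDKN1A, GADD45A, MYC, CCND1, CDKN1B, IGFBP3 and CCNC. CDKN1A and CDKN1B moved forward, and the other 5 kept their order. The nearest calcitriol peak was closer than the nearest unstimulated peak for 6 of the 7 genes, all but MYC. The calcitriol list is the longer one, which by itself shortens distances, and for CCND1, GADD45A and IGFBP3 the difference was under 0.5 kb. The calcitriol distances of CDKN1A and GADD45A, 0.341 and 0.401 kb, and the unstimulated distances of GADD45A and MYC, 0.701 and 1.06 kb, differ by less than the rounding of the TSS, so the order within these pairs is not firm.

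Width set MYC apart from the other peaks in the windows. Over the 6 unstimulated peaks widths ran from 590 bp (CCND1) to 2730 bp (MYC) with a median of 1050 bp, and the list as a whole had a median of 1340 bp (quartiles 1030 and 1710 bp). Over the 5 calcitriol peaks they ran from 1330 bp (GADD45A) to 2800 bp (MYC) with a median of 1490 bp, against 1430 bp (1090 and 1780 bp). Apart from MYC, 1 of the other 5 unstimulated peaks, that of CDKN1A at 22.3 kb, was wider than the median of its list. In the shared regions of MYC, CCND1 and GADD45A the calcitriol peak was the wider one, by 70, 1089 and 290 bp. A wider calcitriol peak was the more common case among all 447 regions of 1 peak from each list. Their median ratio of calcitriol to unstimulated width was 1.12 (quartiles 0.88 and 1.48). The ratios of MYC (1.03) and GADD45A (1.28) lay within these quartiles and that of CCND1 (2.85) above them.

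**Figure D4:**
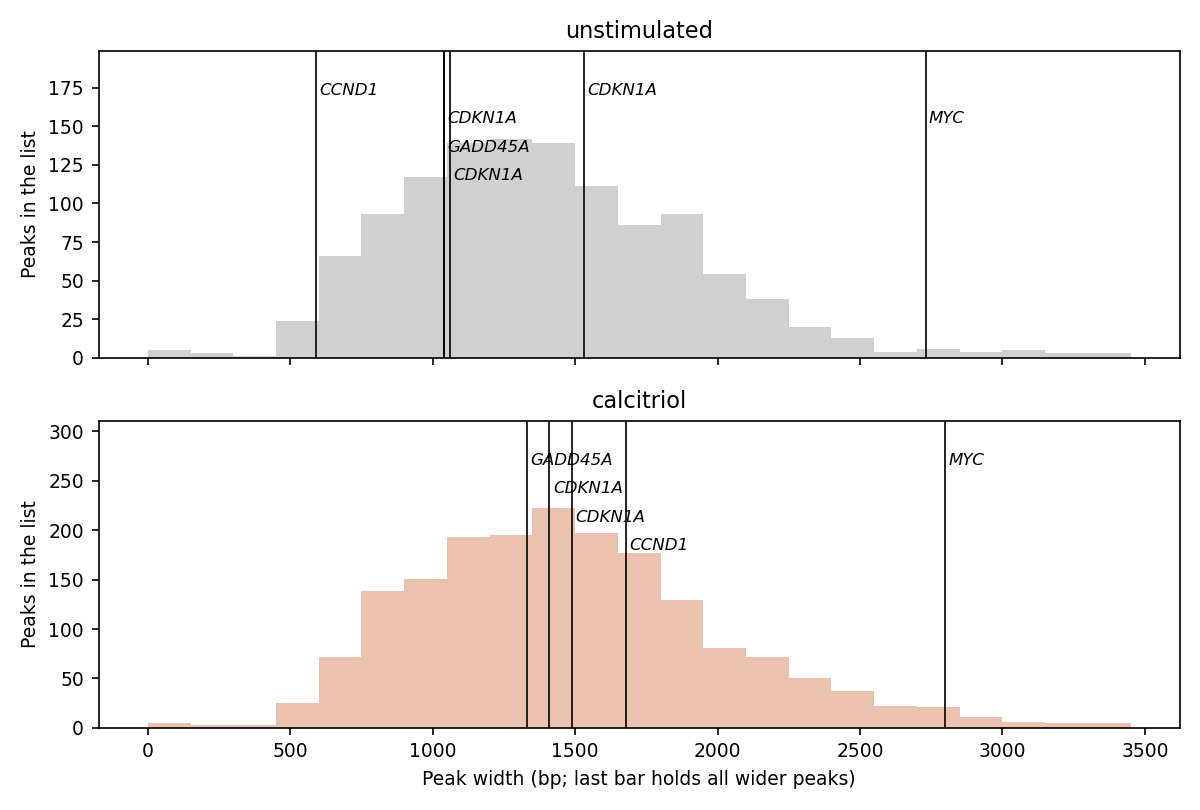
Widths of all peaks of the unstimulated (top) and calcitriol (bottom) list in bp, as numbers of peaks per bar, with a black line at each peak near the 7 genes. MYC stands at 2730 and 2800 bp in the upper tail of both lists, and CCND1 moves from 590 bp to 1679 bp.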

How the data were processed

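VDR ChIP-seq libraries of unstimulated and calcitriol-treated THP-1 cells were compared, 1 library per condition. Per the submitters' processing notes, Bowtie placed the reads on hg19. In each library 5 immunoprecipitations were pooled, per the deposited protocol. How peaks were called, and against which control, is not given in the sources used here. The authors deposited each list as chromosome, start and end, with no score or depth. Positions are printed as deposited, and width is end minus start.

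TSS positions, to the nearest 1 kb, came with the list of 7 genes, which was chosen with earlier results of these data known. The strands of MYC, CCND1 and GADD45A were set from general knowledge, the others matched RefSeq. A peak counted for a gene if at least 1 bp lay in the window of 100 kb to each side, and for its class if it overlapped a peak of the other list by at least 1 bp. Distances run to the nearest peak edge. Shares of positions were counted over 3013 Mb, from position 1 to the last peak end of each chromosome. All 7 genes were named, as the rule for named genes set. A planned count over 23 other cell cycle genes was not run, since hg19 gene positions were not used here. RefSeq tables of GRCh38.p14 gave neighbouring genes and promoters. Functions were tested on simulated intervals. Python 3.11.15, numpy 2.4.6, pandas 2.3.3 and matplotlib 3.10.9 were used.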

Additional observations from a re-analysis of the deposited data

How the results depend on the processing

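No paired analysis was possible because there is a single library of each state, and leaving out replicates was likewise not possible. Of 88 values under other settings, 67 stayed within 1.5 times of the reported value and 21 did not. The 4 genes with a peak of either list were 4 again with windows of 50, 200 and 500 kb. Windows of 500 kb held 10 calcitriol peaks, and windows of 1000 kb, added after seeing the data, 14 calcitriol and 11 unstimulated peaks. Windows of 5 kb, also added, held 3 calcitriol and 2 unstimulated peaks, the latter at 2 genes. In the wider 50% of each list, 2 unstimulated peaks at 2 genes and 3 calcitriol peaks were left. The genes with a peak of either list then fell from 4 to 3, as GADD45A had none left. With centres within 100 bp required for sharing, no region (0) counted as both, 6 were unstimulated-only and 5 calcitriol-only. Among all 447 regions of 1 peak from each list the median distance between centres was 235 bp, so most of them fail this rule too. With reciprocal overlap of at least 50% 2 regions, those of MYC and GADD45A, counted as both, and with edges within 1 kb 3 did. The shares of all regions under these other sharing rules are not given here, so the counts describe these windows alone. Counted only over positions within 1 Mb of a peak, the shares with a peak in the window were 10.0% (unstimulated), 17.0% (calcitriol) and 19.7% (either list). Measured to the peak centre, the nearest distances were 2.43 and 2.85 kb for MYC, 1.22 and 1.07 kb for GADD45A (unstimulated and calcitriol) and 1.05 kb for the calcitriol peak of CDKN1A. AGGTCA alone was in the promoter windows of 0 members. Depth and peak height are unknown, so a missing peak does not show missing binding.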

Other observations

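Beyond 100 kb and up to 1000 kb, the surroundings of MYC, CCND1, CDKN1A and CDKN1B held further peaks found in a single list. Such regions are the usual case, at 72.6% of all regions. MYC, between the coding neighbours POU5F1B and GSDMC in RefSeq, had 3 unstimulated and 5 calcitriol peaks within 1000 kb. One region 515 kb downstream was in both lists, at 1119 bp before and 1669 bp after calcitriol. The peaks 369 kb upstream and 182 and 998 kb downstream were in the calcitriol list alone, with widths of 1430, 800 and 1180 bp. A peak of 1310 bp at 143 kb downstream was in the unstimulated list alone and is among its out-of-order rows. CDKN1A had calcitriol-only peaks 445 kb upstream and 330 kb downstream, and an unstimulated-only peak 758 kb upstream, also an out-of-order row. Within 1000 kb of CDKN1A each list had 4 peaks and none was shared, and over the whole genome 72.6% of regions were in a single list.

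CCND1 had a calcitriol-only peak 391 kb upstream and an unstimulated-only peak 859 kb upstream. GADD45A had a region of both lists 754 kb upstream, 1259 bp wide before and 2369 bp wide after calcitriol.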
